A study of Mus musculus with 13 samples.

Results

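The collagen genes are the 44 genes of the count matrix whose symbol has the form of a collagen chain (Col, a type number, the letter a and a chain number), and all 44 had a value in all 13 tumors. They are 44 of the 21100 genes in the matrix, of which 16687 had a value in every tumor. Bulk poly(A) RNA was sequenced from 9 basal cell carcinomas (BCCs) of a genetically engineered mouse model (GEM-BCC) and from 4 transplanted tumors (Tp-BCC), 1 library per tumor, and the question here is which collagen chains differ between the models. GEM-BCC mice had the genotype Ptch1+/- K14-CreER2 p53fl/fl, were female, and grew intradermal tumors after 3 intraperitoneal injections of 300 µg tamoxifen and a single X-ray dose of 4 Gy. In these mice Cre is driven by the K14 promoter of basal keratinocytes, so that recombination of p53 is directed to those cells. Tp-BCC tumors grew under the skin of the right flank of female Ptch1+/-p53fl/fl hosts given 2000000 tumor cells. The transplanted line began with a single GEM-BCC tumor and was then passed serially from host to host, and which passage was sequenced is not given in the sources used here. Both models thus share Ptch1+/- and p53fl/fl alleles and an intact immune system, and ages were not given. The 9 GEM-BCC tumors came from 7 mice (GEM2 and GEM3 from the same mouse, GEM7 and GEM8 from another), the 4 Tp-BCC tumors from 4 mice, and each model was processed as a batch of its own, so that model and batch cannot be told apart.

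Collagens are triple helices of 3 chains, and a family of genes supplies the chains in fixed or varying combinations. Fibrillar collagens (types I, II, III, V, XI, XXIV and XXVII) form the banded fibrils of dermis, cartilage and stroma. Type V and XI chains are built into those fibrils in small amounts and set their number and diameter. FACIT collagens (fibril-associated collagens with interrupted triple helices, types IX, XII, XIV, XVI, XIX, XX and XXII here) sit on fibril surfaces. Basement membrane collagen is type IV, the network under epithelia and around vessels. Type VI forms beaded filaments between fibrils and cells. Transmembrane collagens (XIII, XVII, XXIII and XXV) stand in the plasma membrane, among them collagen XVII of the hemidesmosomes of basal keratinocytes. Type VII makes anchoring fibrils below the epidermis, types VIII and X short-chain networks, and types XV and XVIII, the multiplexins, sit in basement membrane zones. Skin fibroblasts make most of the fibrillar and type VI chains, and BCC nests grow embedded in such a stroma.

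Library totals of expected counts lay between 28075317 and 32629102 for GEM-BCC, and for Tp-BCC between 15388027 and 17494912. Levels are given as CPM, counts scaled to the library total after TMM normalization. Log2 CPM of tested genes, minus each gene's mean over all tumors, was compared with the GC content of their transcripts. Spearman's rho over genes was 0.608 and 0.609 in TP2 and TP4 and -0.396 and -0.483 in TP1 and TP3. It was 0.363 in GEM1 and between -0.32 and -0.14 in the other GEM-BCC tumors. Values relative to a mean lie on both sides of it, so opposite signs among tumors are partly built in. The GC trend touches the collagen genes, whose median transcript GC content was 55.36% beside 50.59% of tested genes. Trp53 levels ran from 29.9 to 61.7 CPM across GEM-BCC tumors and from 19.8 to 30.4 CPM across Tp-BCC tumors, with overlap, and which exons are lost is not given in the sources used here and the host cells keep the gene, so this checks no label. Basal keratinocyte markers (Krt5, Krt14, Krt17, Trp63, Itga6, Itgb4 and Epcam) were present in every tumor, with summed levels between 11281 and 17140 CPM (GEM-BCC) and between 8001 and 20144 CPM (Tp-BCC), and 0 of the 7 passed the test, though Krt5 and Krt14 passed as lower in Tp-BCC with the GC trend removed. Of 15 fibroblast markers 9 were higher in Tp-BCC and 1 lower, beside 11.1% and 8.35% of all tested genes. Their summed levels were 4129 to 4397 CPM in Tp-BCC and 1798 to 3021 CPM in GEM-BCC. Libraries of the same model differed by more than counting noise.

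Collagen transcripts made up 4.36 ± 1.21% of all counts in GEM-BCC (mean ± SD, n = 9 tumors) and 3.68 ± 0.823% in Tp-BCC (n = 4). The lowest GEM-BCC tumor held 2.40% (GEM4), the median tumor 4.25% and the highest 6.45% (GEM6), while TP1, TP2, TP3 and TP4 held 2.94%, 4.17%, 3.03% and 4.59%. The Tp-BCC tumors lay inside the GEM-BCC range, with TP2 and TP4 above TP1 and TP3. In bulk samples such as these, fewer cells of a type and less RNA per cell cannot be told apart. What differed was the make-up of the collagen counts, shown in the plot of shares by tumor.

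**Figure D1:**
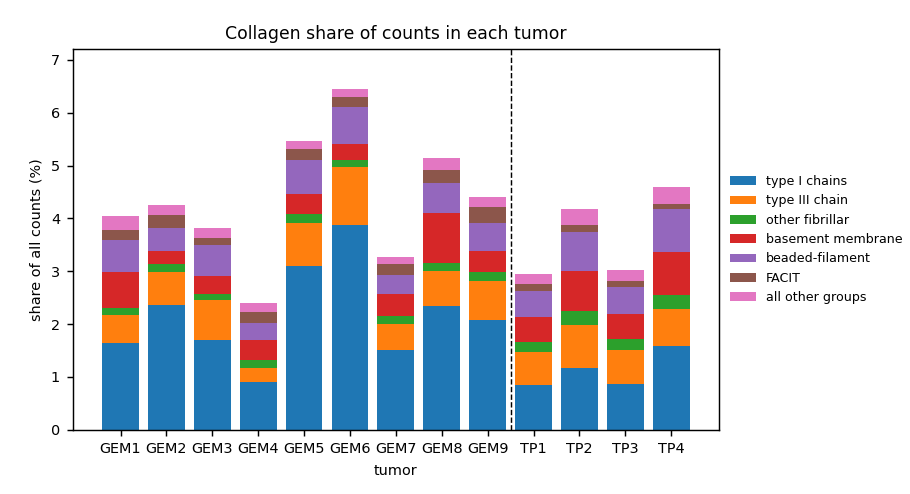
Share of all counts taken by collagen genes in each of 13 tumors (vertical axis, percent; horizontal axis, tumor; dashed line between GEM-BCC and Tp-BCC), stacked by collagen type or group. Type I chains (blue) take between 0.899 and 3.88% of counts across the GEM-BCC bars and between 0.856 and 1.59% across the Tp-BCC bars.

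Type I chains took 48.2 ± 7.59% of the collagen counts in GEM-BCC and 30.1 ± 3.02% in Tp-BCC, and the ranges of 37.5 to 60.1% and 28.3 to 34.6% did not meet. Type III went the other way by a smaller step, from 15.04 ± 2.55% to 19.1 ± 2.68%, with overlapping ranges. Type V chains took 2.55 ± 0.648% in GEM-BCC and 5.90 ± 0.298% in Tp-BCC. Their highest GEM-BCC share, 3.99%, lay below their lowest Tp-BCC share, 5.52%. Beaded-filament chains took 12.2 ± 1.82% of collagen counts in GEM-BCC beside 17.4 ± 0.4997% in Tp-BCC and transmembrane chains 1.13 ± 0.604% beside 2.97 ± 0.231%, in both cases without overlap. FACIT chains took 5.22 ± 1.79% and 3.25 ± 0.994%, and basement membrane chains 11.2 ± 5.17% and 16.7 ± 1.36%, with overlap in both. These shares are descriptions, without a test. They are parts of a whole, so a lower type I share raises the shares of other chains. Of all counts, beaded-filament chains took 0.525 ± 0.129% in GEM-BCC and 0.645 ± 0.161% in Tp-BCC, with overlap. Type V chains took 0.105 ± 0.0126% and 0.216 ± 0.0385% of all counts, without overlap. Transmembrane chains took 0.0443 ± 0.0161% and 0.109 ± 0.0237%, also without overlap. Without Col1a1, Col1a2 and Col3a1 the remaining 41 genes took 1.53 ± 0.313% of all counts in GEM-BCC and 1.87 ± 0.433% in Tp-BCC, opposite to the total. Of those 3 genes, the type I chains were lower in Tp-BCC, with 2.17 ± 0.894% of all counts in GEM-BCC and 1.12 ± 0.345% in Tp-BCC. Col3a1 was not lower, with 0.664 ± 0.229% and 0.689 ± 0.0828%.

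Compared per kilobase of transcript, type I chains led in GEM-BCC. Col1a2 stood at 2007 ± 805 and Col1a1 at 1783 ± 727 CPM per kb (mean ± SD, n = 9), followed by Col3a1 at 1175 ± 398, Col6a1 at 480 ± 153 and Col4a1 at 474 ± 253. In Tp-BCC Col1a2 (1343 ± 507 CPM per kb, n = 4) and Col3a1 (1303 ± 305) stood side by side, Col1a1 followed at 819 ± 437 and Col4a1 at 668 ± 264. Col1a2 and Col1a1 in GEM-BCC, Col6a1 and Col4a1 in GEM-BCC, Col1a2 and Col3a1 in Tp-BCC, and Col1a1 and Col4a1 in Tp-BCC were neighbors whose means lay closer than either SD. Col6a3 moved from rank 9 to rank 6, Col5a1 from 13 to 9 and Col14a1 from 8 to 13 of 44.

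Of the 41 collagen genes that reached 10 counts in 4 or more tumors, 7 were higher and 8 lower in Tp-BCC at an adjusted P under 0.05, and 26 did not pass. Among all 14390 tested genes 11.1% passed as higher and 8.35% as lower, beside 17.1% and 19.5% of the tested collagens. A change was called when the absolute log2 fold change was also above 2: this held for 1 collagen upward (Col17a1), beside 2.36% of all genes, and for 3 downward (Col6a5, Col6a6 and Col9a2), beside 3.21%. Col6a5 reached the count filter only through GEM-BCC, where it is high, and its fold is known only as a bound below that threshold, so without it 7 collagens were lower and 2 were called as lower. Every Tp-BCC tumor lay above every GEM-BCC tumor for 5 collagens, Col5a1, Col5a2, Col6a3, Col17a1 and Col20a1, and 5.5% of all genes did so. No collagen had every Tp-BCC tumor below every GEM-BCC tumor, while 4.45% of all genes did. The median log2 fold change was -0.31 over the 41 collagens and -0.03 over all genes. Col4a3, Col9a1 and Col28a1 had too few counts for the test. Levels relative to each gene's mean rose with GC content in GEM1, TP2 and TP4. Without these 3 tumors 6 collagens passed, 4 of them from the 15: Col5a2, Col6a3, Col1a1 and Col9a2. That comparison keeps 8 tumors against 2, and 904 genes then passed as higher and 669 as lower.

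**Figure D2:**
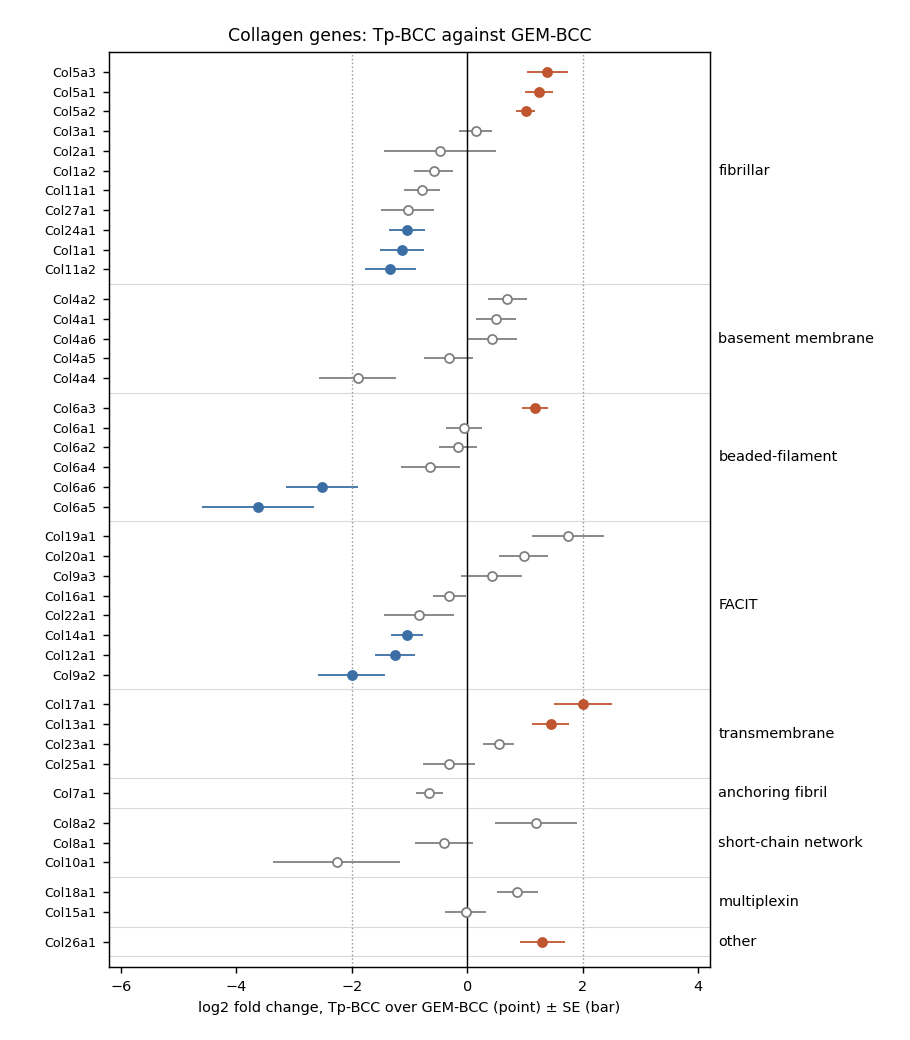
Log2 fold change of Tp-BCC over GEM-BCC (horizontal axis, point) with its SE (bar) for the 41 tested collagen genes, grouped by collagen class. Filled red points passed as higher, filled blue points as lower and open gray points did not pass, dotted lines mark -2 and 2, and type V chains, Col6a3 and the transmembrane Col13a1 and Col17a1 lie to the right.

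Among the fibrillar collagens 3 of 11 rose, all 3 of type V, 3 fell, Col1a1, Col11a2 and Col24a1, and 5 did not pass. Col1a1, which codes for the chain present in 2 copies of each type I molecule, stood at 4438 CPM in the lowest GEM-BCC tumor (GEM4), 9032 in the median and 18020 in the highest (GEM6), and at 2951, 5102, 2932 and 8431 CPM in TP1 to TP4. TP1 and TP3 lay below all GEM-BCC tumors and TP4 near the GEM-BCC median. Its log2 fold change was -1.12 ± 0.38 (SE, adjusted P = 0.0497), a value close to the threshold that stayed under it in 4 of the 13 fits that each left out a tumor, with -1.59 to -0.94 as the range of the log2 fold change. It did not pass with counts summed per mouse (-1.13, adjusted P = 0.0637) or with the length trend removed. With the GC trend removed it passed as lower. Its log2 CPM was then 11.76, 11.81, 11.78 and 12.24 in TP1 to TP4, below the lowest GEM-BCC tumor (GEM4, 12.31). Its partner Col1a2 stood at 4368, 10347 and 19738 CPM (lowest, median and highest GEM-BCC tumor) and at 4994, 8152, 5002 and 10582.5 CPM in TP1 to TP4. All 4 Tp-BCC tumors lay within the GEM-BCC range, and the log2 fold change of -0.58 ± 0.34 did not pass (adjusted P = 0.236), though with the GC trend removed it was -0.90 (adjusted P = 0.0406). Col3a1, the type III chain, chosen here after its values were seen, ran from 2715 to 10626 CPM in GEM-BCC with a median of 6526 and stood at 5637, 8977, 5954 and 8423 CPM in TP1 to TP4. Its log2 fold change was 0.15 ± 0.28 (adjusted P = 0.742).

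**Figure D3:**
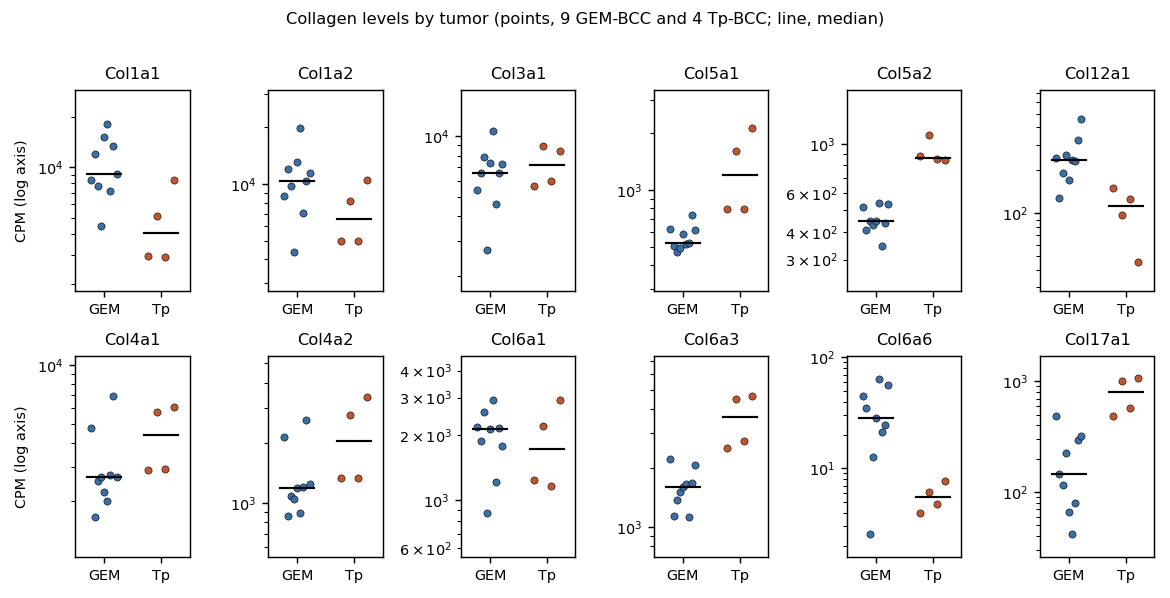
CPM of 12 collagen genes in each tumor (vertical axis, log scale with its own range in each panel; points, 9 GEM-BCC in blue and 4 Tp-BCC in red; line, median). Points of the models do not overlap for Col5a1, Col5a2, Col6a3 and Col17a1.

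Type V chains co-assemble with type I and start its fibrils. Col5a2 was the most even of them: 347 CPM in the lowest GEM-BCC tumor, 449 in the median and 538 in the highest, and 880, 1096, 853 and 846 CPM in TP1 to TP4. All 4 Tp-BCC tumors lay above all 9 GEM-BCC tumors, and the log2 fold change was 1.01 ± 0.17 (adjusted P = 0.000922). Col5a1 ran from 469 through 523 to 738 CPM in GEM-BCC and stood at 798, 1608, 795 and 2124 CPM in TP1 to TP4. Again no tumors overlapped, with TP2 and TP4 well above TP1 and TP3, and the log2 fold change was 1.24 ± 0.24 (adjusted P = 0.00293). The size of this difference rests on TP2 and TP4: with GEM1, TP2 and TP4 left out it was 0.52 (adjusted P = 0.0913), and with the GC trend removed 0.82 (adjusted P = 0.00144). Col5a3, the scarcest type V chain, ran from 9.92 through 13.8 to 38.6 CPM in GEM-BCC and stood at 26.8, 48.1, 25.3 and 68.3 CPM in TP1 to TP4. GEM5 lay within the Tp-BCC range and the other 8 GEM-BCC tumors below it, with a log2 fold change of 1.38 ± 0.36 (adjusted P = 0.0144).

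The fibrillar chains that fell besides Col1a1 were of low level. Col24a1 went from 21.2 ± 4.73 CPM in GEM-BCC to 10.3 ± 4.72 CPM in Tp-BCC (log2 fold change -1.04 ± 0.32, adjusted P = 0.0308). Col11a2, a chain of type XI, went from 2.88 ± 1.25 to 1.14 ± 0.102 CPM (-1.33 ± 0.44, adjusted P = 0.0436) and lost its pass in 9 of the 13 fits with a tumor left out. Its better expressed partner Col11a1 stood at 148 ± 42.5 and 86.2 ± 39.1 CPM without passing (-0.78 ± 0.31, adjusted P = 0.0908), as did Col27a1 (165 ± 86.9 and 80.8 ± 13.9 CPM, adjusted P = 0.12). Beside the fibrillar results stand the fibroblast markers. Pdgfra, a receptor that marks fibroblasts, had a log2 fold change of 2.14 ± 0.35 (adjusted P = 0.000746). Its tumors ran from 181 to 399 CPM in GEM-BCC and from 245 to 1562 CPM in Tp-BCC, with overlap. Pi16 gave 2.05 ± 0.46 (adjusted P = 0.00643), Fbln2 1.18 ± 0.24 (adjusted P = 0.00351) and Postn -1.05 ± 0.64 without passing (adjusted P = 0.258). Dpt, a matrix protein of dermal fibroblasts named after its values were seen, gave -1.80 ± 0.37 (adjusted P = 0.00384). The part of fibroblast number in the collagen levels was not tested.

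Beaded-filament collagen VI has an α1 and an α2 chain that pair with a further chain, either the long α3 or the later described α4 to α6. In mice Col6a1 and Col6a2 are neighbors on chromosome 10 and Col6a3 lies apart on chromosome 1. The windows around their RefSeq starts (250 bases before to 50 after, GRCm38.p6) are shown because the 3 genes of this trimer did not move alike. Capitals mark 3 motifs on either strand: the TATA box TATAAA, held by 13.6% of all 32851 windows of that length, the CCAAT box, held by 37.4%, and the GC box GGGCGG, held by 35.7%.
Col6a1, chr10:76725995-76726294, minus strand: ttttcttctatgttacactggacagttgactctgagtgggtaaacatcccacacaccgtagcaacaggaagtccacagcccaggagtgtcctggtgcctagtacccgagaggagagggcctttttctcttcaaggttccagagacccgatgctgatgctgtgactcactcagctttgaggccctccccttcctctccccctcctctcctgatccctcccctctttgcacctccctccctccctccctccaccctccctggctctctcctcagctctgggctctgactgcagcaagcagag
Col6a2, chr10:76623355-76623654, minus strand, 1 of 2 starts: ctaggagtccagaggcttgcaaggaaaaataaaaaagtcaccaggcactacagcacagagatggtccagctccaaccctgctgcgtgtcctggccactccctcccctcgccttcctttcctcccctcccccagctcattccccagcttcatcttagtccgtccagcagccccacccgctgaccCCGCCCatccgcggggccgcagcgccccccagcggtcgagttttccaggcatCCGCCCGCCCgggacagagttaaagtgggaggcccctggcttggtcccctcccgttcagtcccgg
Col6a3, chr1:90843922-90844221, minus strand: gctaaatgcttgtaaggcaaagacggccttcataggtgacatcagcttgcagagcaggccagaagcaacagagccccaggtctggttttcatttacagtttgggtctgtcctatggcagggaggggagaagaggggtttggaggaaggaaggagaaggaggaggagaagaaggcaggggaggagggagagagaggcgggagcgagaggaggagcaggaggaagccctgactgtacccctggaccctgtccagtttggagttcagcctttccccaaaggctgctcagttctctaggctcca
Of these windows, that of Col6a2 held 3 GGGCGG matches, 2 of them overlapping, and those of Col6a1 and Col6a3 held none of the 3 motifs. RefSeq windows were found for 35 of the 44 collagen genes.

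Col6a3 stood at 1126 CPM in the lowest GEM-BCC tumor (GEM7), 1599 in the median and 2204 in the highest (GEM1), and at 2515, 4481, 2727 and 4637 CPM in TP1 to TP4. All 4 Tp-BCC tumors lay above all 9 GEM-BCC tumors, with a log2 fold change of 1.17 ± 0.23 (adjusted P = 0.00282), and with GEM1, TP2 and TP4 left out it was 0.79 (adjusted P = 0.0471). Col6a1 ran from 875 (GEM4) through 2137 to 2907 CPM in GEM-BCC and stood at 1240, 2211, 1166 and 2927 CPM in TP1 to TP4. The models overlapped, and the log2 fold change was -0.06 ± 0.31 (adjusted P = 0.912). Col6a2, named after its values were seen as the partner of Col6a1, gave -0.17 ± 0.33 (adjusted P = 0.749).

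The other type VI chains were scarce. Col6a6 stood at 2.56 CPM in the lowest GEM-BCC tumor (GEM3), 28.1 in the median and 64.4 in the highest (GEM6), and at 3.94, 6.17, 4.79 and 7.71 CPM in TP1 to TP4. GEM3 lay below all Tp-BCC tumors and the other 8 GEM-BCC tumors above them, with a log2 fold change of -2.51 ± 0.62 (adjusted P = 0.0114). With the transcript length trend removed it was -1.84 (adjusted P = 0.0571). Col6a5 had at most 1.01 counts in any Tp-BCC tumor and 2 to 27.6 counts in GEM-BCC, so only a bound can be given: it was at least 2.32-fold lower in Tp-BCC, computed with 3 counts per library. Its adjusted P was 0.0177, and it entered the test only through its GEM-BCC counts. Col6a6, Col6a5 and Col6a4 lie next to each other on chromosome 9 and resemble each other, and the 16 fractional counts among collagen genes were all in Col6a6 and Col6a5, so their split by the quantifier is uncertain. Col6a4 gave -0.64 ± 0.52 (adjusted P = 0.402).

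The transmembrane collagens held the only upward call: 2 of 4 rose, Col17a1 and Col13a1. Collagen XVII links the keratin cytoskeleton of basal keratinocytes to the basement membrane. The window of its RefSeq start is shown because this chain had the largest rise among the collagens that passed.
Col17a1, chr19:47691993-47692292, minus strand: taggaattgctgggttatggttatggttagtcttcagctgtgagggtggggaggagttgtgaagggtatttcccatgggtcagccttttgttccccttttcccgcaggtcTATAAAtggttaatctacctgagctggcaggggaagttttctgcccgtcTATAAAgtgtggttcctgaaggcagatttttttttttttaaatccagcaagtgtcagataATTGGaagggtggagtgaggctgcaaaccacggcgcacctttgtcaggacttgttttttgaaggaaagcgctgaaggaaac
It held 2 TATAAA matches and 1 CCAAT match on the opposite strand. Col17a1 stood at 41.7 CPM in the lowest GEM-BCC tumor (GEM6), 147 in the median and 483 in the highest (GEM1), and at 491, 1017, 576 and 1064 CPM in TP1 to TP4. No tumors overlapped, though TP1 and GEM1 were nearly level. The log2 fold change was 2.00 ± 0.50 (adjusted P = 0.012), at the edge of the fold threshold, and 1.67 (adjusted P = 0.0158) with the GC trend removed. Without GEM1, TP2 and TP4 it was 1.74 and did not pass (adjusted P = 0.0744). Of the 5 tested partners in the hemidesmosome list (median log2 fold change -0.29) none passed, among them Plec at 0.33 ± 0.25 (adjusted P = 0.36) and Dst at -0.83 ± 0.52 (adjusted P = 0.271), both linkers to the cytoskeleton, and the tetraspanin Cd151 at -0.29 ± 0.29 (adjusted P = 0.515).

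Col13a1, a collagen of cell adhesion sites, went from 23.4 ± 10.4 CPM in GEM-BCC to 63.7 ± 26.99 CPM in Tp-BCC (log2 fold change 1.44 ± 0.32, adjusted P = 0.00584), and only GEM3, at 46.4 CPM, reached into the Tp-BCC range of 40.4 to 101 CPM. Col23a1 stood at 113, 221 and 287 CPM (lowest, median and highest GEM-BCC tumor) and at 233, 410, 221 and 308 CPM in TP1 to TP4. TP1 and TP3 lay near the GEM-BCC median, and the log2 fold change of 0.54 ± 0.26 did not pass (adjusted P = 0.154). Col26a1, a small collagen outside these classes, rose from 56.5 ± 36.7 to 139 ± 58.9 CPM (1.302 ± 0.397, adjusted P = 0.032): its GEM-BCC tumors ran from 28.6 through 43.6 to 133 CPM and TP1 to TP4 stood at 105, 168, 77.5 and 207 CPM. GEM2 and GEM3, from the same mouse, fell within the Tp-BCC range, and the rise did not pass with the GC trend removed (0.92, adjusted P = 0.0691) and passed in 5 of the 13 fits that each left out a tumor (highest adjusted P = 0.146).

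FACIT collagens went down or did not pass: 0 of 8 tested rose, 3 fell and the median log2 fold change was -0.57. Col14a1, which binds fibril surfaces in dermis and tendon, stood at 796 CPM in the lowest GEM-BCC tumor (GEM3), 1263 in the median and 1980 in the highest (GEM9), and at 701, 821, 708 and 374 CPM in TP1 to TP4. TP2 alone reached above GEM3, and the log2 fold change was -1.04 ± 0.28 (adjusted P = 0.0186). Col12a1, its relative in dense connective tissue, went from 249 ± 96.7 to 104 ± 44.7 CPM (-1.25 ± 0.35, adjusted P = 0.021), with GEM2 at 128 CPM as the only GEM-BCC tumor inside the Tp-BCC range of 45.4 to 149 CPM. Col9a2, a chain of cartilage type IX, was called at the very edge of the fold threshold: it went from 7.39 ± 4.93 to 1.85 ± 1.02 CPM (-2.0003 ± 0.584, adjusted P = 0.026), and GEM8 lay within the Tp-BCC range of 0.898 to 3.14 CPM. Col16a1 ran from 312 through 411 to 640 CPM in GEM-BCC and stood at 228, 394, 235 and 596 CPM in TP1 to TP4. TP1 and TP3 lay below all GEM-BCC tumors and TP2 and TP4 among them, the same split as in GC trend, and the cause was not tested. Col16a1 did not pass (-0.31 ± 0.29, adjusted P = 0.474) unless the GC trend was removed (-0.69, adjusted P = 0.0226). Col20a1, named after its values were seen, was the FACIT chain with every Tp-BCC tumor above every GEM-BCC tumor (0.506 to 6.39 CPM against 6.71 to 10.4 CPM), without passing (0.98 ± 0.42, adjusted P = 0.113).

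None of the 5 tested basement membrane chains passed. Col4a1 and Col4a2, the chains of the common type IV network, are transcribed in opposite directions from neighboring starts, and the stretch where their RefSeq start windows overlap is shown because these chains kept step in all tumors.
Col4a1 and Col4a2 overlap, chr8:11312777-11312854, plus strand: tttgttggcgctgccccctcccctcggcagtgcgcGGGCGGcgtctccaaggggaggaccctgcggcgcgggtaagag
The 78 shared bases held 1 GGGCGG match. Col4a1 stood at 1665 CPM in the lowest GEM-BCC tumor (GEM2), 2651 in the median and 6941 in the highest (GEM8), and at 2890, 5755, 2937 and 6100 CPM in TP1 to TP4. Col4a2 followed with 857, 1180 and 2614 CPM in GEM-BCC, the extremes in the same tumors, and 1329, 2747, 1332 and 3410 CPM in TP1 to TP4. TP2, TP4, GEM1 and GEM8 were the high tumors for both genes. The log2 fold changes were 0.50 ± 0.35 (adjusted P = 0.335) and 0.70 ± 0.33 (adjusted P = 0.15), and with the GC trend removed 0.14 and 0.31.

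Of the remaining classes none passed. Col7a1, the anchoring fibril chain, ran from 433 through 697 to 836 CPM in GEM-BCC and stood at 266, 458, 359 and 559 CPM in TP1 to TP4. TP1 and TP3 lay below all GEM-BCC tumors, and its log2 fold change of -0.66 ± 0.23 missed the threshold (adjusted P = 0.0585) but passed with the GC trend removed (-0.98, adjusted P = 0.00274). Col18a1, the source of endostatin, ran from 203 through 308 to 714 CPM in GEM-BCC and stood at 388, 836, 391 and 1077 CPM in TP1 to TP4 (0.87 ± 0.36, adjusted P = 0.102). Col15a1 ran from 113 through 272 to 472 CPM and stood at 202, 339, 198 and 451 CPM in TP1 to TP4 (-0.03 ± 0.35, adjusted P = 0.968). GEM1 and GEM8 were the high GEM-BCC tumors for Col18a1, as for type IV, whereas GEM6 was highest for Col15a1. Col8a2, a network chain of Descemet's membrane and vessels, ran from 3.85 through 6.30 to 80.8 CPM in GEM-BCC and stood at 34.0, 44.2, 30.2 and 78.9 CPM in TP1 to TP4. Its partner Col8a1 had means of 5.30 ± 2.43 and 3.99 ± 2.69 CPM, and neither passed (1.19 ± 0.71, adjusted P = 0.25, and -0.41 ± 0.50, adjusted P = 0.596).

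Ratios of CPM between chains that share a trimer or fibril were compared between models, not between genes. For 8 ratios the difference of the mean log2 ratio between models was tested by exact 2-sided permutation over all 715 divisions of the 13 tumors into 9 and 4, and P-values were adjusted over the 8. In 4 of them the models differed. Col1a1 to Col1a2 had a CPM ratio with a median of 0.983 in GEM-BCC (0.789 to 1.29) and stood at 0.591, 0.626, 0.586 and 0.797 in TP1 to TP4. TP4 alone reached the lower edge of the GEM-BCC range, and the log2 ratio was lower by 0.60 in Tp-BCC, at -0.63 ± 0.21 against -0.03 ± 0.23 (mean ± SD, exact P = 0.0042, adjusted P = 0.00839). Col3a1 to Col1a1 had a median ratio of 0.612 in GEM-BCC (0.487 to 1.01) and stood at 1.91, 1.76, 2.03 and 0.999 in TP1 to TP4, a log2 difference of 1.36 (exact P = 0.0028, adjusted P = 0.00746). TP4 lay level with GEM3, the highest GEM-BCC tumor, and the other 3 Tp-BCC tumors above all GEM-BCC tumors.

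**Figure D4:**
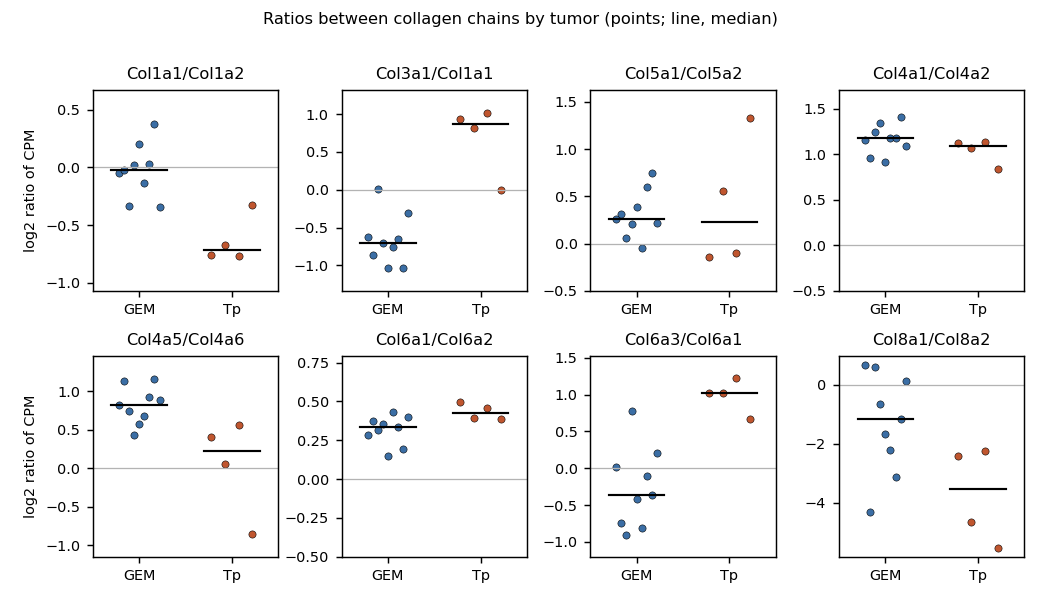
Log2 ratio of CPM between 8 pairs of collagen chains in each tumor (vertical axis, with its own range in each panel; points, 9 GEM-BCC in blue and 4 Tp-BCC in red; line, median; gray line, a ratio of 1). The medians are apart for Col1a1/Col1a2, Col3a1/Col1a1, Col4a5/Col4a6 and Col6a3/Col6a1, each with 1 Tp-BCC tumor inside the GEM-BCC range, and Col6a1/Col6a2 is nearly flat over all tumors.

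Within type VI, Col6a3 to Col6a1 had a median ratio of 0.777 in GEM-BCC (0.535 to 1.72) and stood at 2.03, 2.03, 2.34 and 1.58 in TP1 to TP4, with GEM4 inside the Tp-BCC range. The log2 difference was 1.24 (exact P = 0.0028, adjusted P = 0.00746). Col6a1 to Col6a2 was the tightest ratio, with log2 values of 0.31 ± 0.09 and 0.43 ± 0.05 and a difference of 0.12 (exact P = 0.0392, adjusted P = 0.0522). Within type IV, Col4a5 to Col4a6, neighbors on the X chromosome and partners in an epithelial network, had a median ratio of 1.77 in GEM-BCC (1.34 to 2.23) and stood at 1.32, 1.03, 1.48 and 0.554 in TP1 to TP4. Only TP3 reached into the GEM-BCC range, and the log2 difference was -0.78 (exact P = 0.0028, adjusted P = 0.00746), or -0.48 without TP4, the lowest tumor (exact P = 0.0182, adjusted P = 0.0364). Col4a1 to Col4a2 kept a ratio near 2.27 in GEM-BCC (median, 1.89 to 2.66) and 2.13 in Tp-BCC (1.79 to 2.20), with a log2 difference of -0.12 (exact P = 0.214, adjusted P = 0.245). Col5a1 to Col5a2 differed by 0.11 (exact P = 0.695), with TP4 at a ratio of 2.51 and TP1 at 0.906. Col8a1 to Col8a2 spread widely, with log2 values of -1.30 ± 1.71 and -3.71 ± 1.64 and a difference of -2.41 (exact P = 0.035, adjusted P = 0.0522). The 4 ratios that passed did so with a smaller prior count, with counts summed per mouse, with the GC trend removed and with each tumor left out (highest adjusted P = 0.0364). With GEM1, TP2 and TP4 left out, the smallest possible exact P is 0.0222, and none of the 4 ratios passed. Log2 differences were then -0.74 for Col1a1/Col1a2, 1.65 for Col3a1/Col1a1 and 1.42 for Col6a3/Col6a1, each at that smallest P (adjusted P = 0.0593). For Col4a5/Col4a6 the difference was -0.33, above the smallest P (exact P = 0.133, adjusted P = 0.178).

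Collagen levels varied widely among GEM-BCC tumors. The median SD of log2 CPM over the 41 genes was 0.70 for GEM-BCC tumors and 0.59 for Tp-BCC tumors, beside 0.44 and 0.58 over all tested genes. In Tp-BCC the variation followed GC content: 31 of 41 collagens, and all 20 above the members' median GC content, were higher in TP2 and TP4 than in TP1 and TP3. With the GC trend removed the median SD of the collagens was 0.23 in Tp-BCC and 0.66 in GEM-BCC. Over all tested genes it was then 0.35 in Tp-BCC and 0.41 in GEM-BCC, so the drop in Tp-BCC was not particular to collagens. Col5a2 and Col5a1 were the steadiest collagens over GEM-BCC tumors, with SDs of 0.20 and 0.21, and Col2a1 the least steady, with 2.40. The heat map of all 41 genes shows both.

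**Figure D5:**
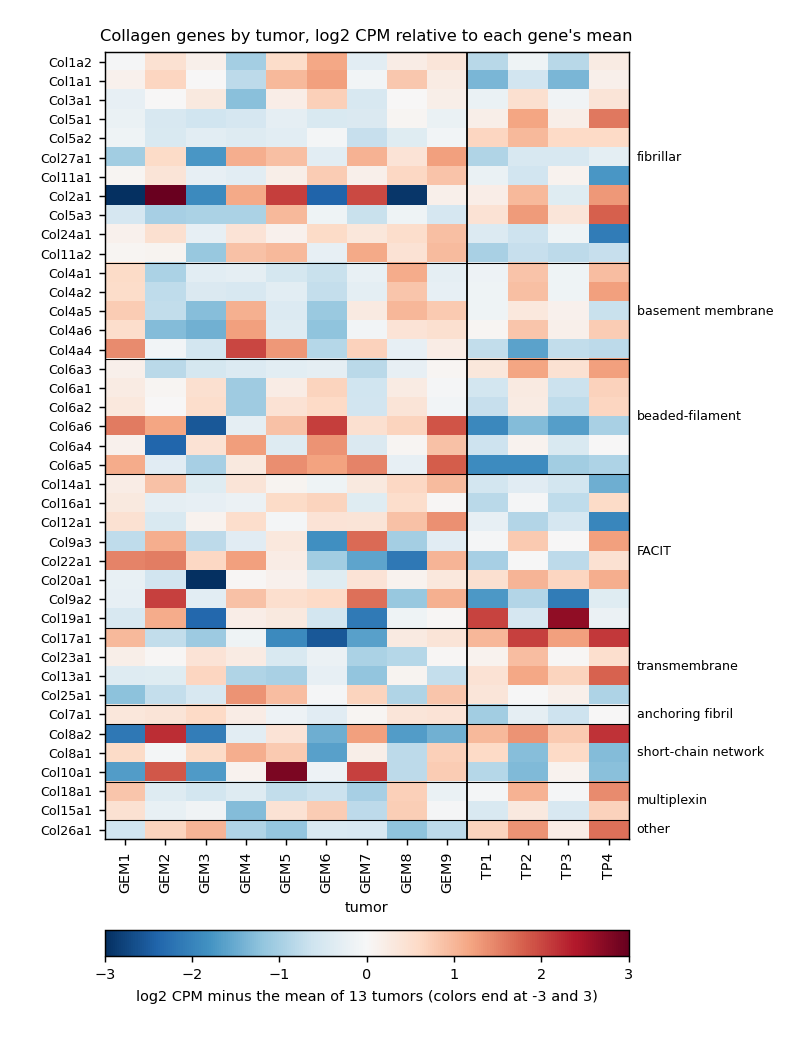
Log2 CPM of the 41 tested collagen genes (rows, by class and mean level) in each tumor (columns; black line between GEM-BCC and Tp-BCC), minus the gene's mean over 13 tumors; red is above and blue below the mean, and colors end at -3 and 3. Col2a1, Col8a2, Col10a1 and Col9a3 are red in GEM2, GEM5 and GEM7, and the type V chains, Col6a3, Col17a1 and Col13a1 are red in the Tp-BCC columns.

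Col2a1, the type II chain of cartilage, was named after its values were seen. Its level was 149 CPM in GEM2, 81.3 in GEM5, 76.0 in GEM7, 41.9 in GEM4 and 21.4 in GEM9, and between 1.97 and 5.00 CPM in GEM1, GEM3, GEM6 and GEM8. TP1 to TP4 stood at 22.1, 37.8, 14.96 and 47.5 CPM, within the GEM-BCC range, and the difference did not pass (-0.48 ± 0.97, adjusted P = 0.757). Both mice that gave 2 tumors had 1 tumor of each kind: GEM2 exceeded GEM3 by 4.88 and GEM7 exceeded GEM8 by 4.91 on the log2 scale. Col8a2, Col10a1, Col9a3 and Col27a1 were also higher in each of GEM2, GEM4, GEM5, GEM7 and GEM9 than in each of the other 4 GEM-BCC tumors, and Col9a2, Col11a2, Col19a1 and Col25a1 in 4 of the 5. This split was taken from Col2a1 itself, and the share of all genes that follow it was not counted. Some gaps were small: Col8a2 stood at 6.30 CPM in GEM9 and 6.28 in GEM6. Col10a1 lay between 0.0316 and 2.40 CPM in GEM-BCC, with 0.297 in GEM4 and 0.239 in GEM6. Pearson's r with Col2a1 over the 9 tumors was 0.91 for Col8a2, 0.88 for Col10a1, 0.84 for Col9a3, 0.83 for Col9a2 and 0.68 for Col27a1, against 0.59 for Col25a1, 0.54 for Col11a2 and 0.31 for Col19a1, a description over tumors of which 2 pairs share a mouse. Of the cartilage markers, Acan, the main cartilage proteoglycan, stood at 53.2 CPM in GEM2 and 130 in GEM6, Comp was under 1 CPM in every tumor. Sox9, the cartilage transcription factor that hair follicle and BCC cells also express, was highest in GEM2 (303 CPM), GEM7 (285), GEM9 (259) and GEM4 (231), at 177 in GEM5, and between 74.2 and 220 CPM in GEM1, GEM3, GEM6 and GEM8. Snorc stood at 19.6 CPM in GEM4 and under 3 CPM in every other tumor, and 3 of 8 cartilage markers had enough counts for the test. Among the GEM-BCC tumors, GEM4 held the lowest levels of Col1a1, Col1a2, Col3a1, Col6a1 and Col6a2, and GEM6 the highest of these 5 genes.

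The proteins that modify, fold, trim and join collagen chains were taken as lists. For comparison with the counts in these and the marker lists, 11.1% of all 14390 tested genes passed as higher and 8.35% as lower. Called genes were 2.36% as higher and 3.21% as lower. Collagen hydroxylation and glycosylation had 0 of 14 tested genes higher and 2 lower, P4ha1, a catalytic subunit of prolyl 4-hydroxylase (-0.85 ± 0.28, adjusted P = 0.045), and P3h4 (-1.01 ± 0.27, adjusted P = 0.0166), with a list median of -0.14. Its best expressed members, P4hb, Ppib and Plod1, gave -0.19, -0.29 and 0.47 without passing. With the GC trend removed P4ha1 lost its pass and P4hb passed as lower. Folding and secretion had 2 of 11 higher and 0 lower, the collagen chaperone Serpinh1 (784 ± 176 against 1468 ± 530 CPM, 0.91 ± 0.23, adjusted P = 0.0143) and the retrieval receptor Kdelr2 (0.81 ± 0.22, adjusted P = 0.0191), with a list median of 0.14. Sec31a and Fkbp10 gave 0.55 and 0.50 without passing, and with the GC trend removed Tmem38b also passed as higher and Fkbp14 as lower. Propeptide processing had 2 of 6 higher and 0 lower, Pcolce, which speeds removal of the C-propeptide (238 ± 104 against 505 ± 205 CPM, 1.08 ± 0.33, adjusted P = 0.034), and the N-proteinase Adamts3 (1.98 ± 0.35, adjusted P = 0.00139), while Bmp1 and Adamts2 gave -0.08 and 0.39 without passing. With the GC trend removed Pcolce lost its pass, and the list median went from 0.45 to 0.16.

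Cross-linking enzymes showed large differences in both directions: 3 of 6 rose, all of them called, 1 fell and the list median was 1.32. Of all tested genes 2.36% were called as higher and 8.35% passed as lower. Loxl1, a lysyl oxidase, stood at 7.42 CPM in the lowest GEM-BCC tumor, 23.1 in the median and 64.4 in the highest, and at 112, 226, 102 and 260 CPM in TP1 to TP4 (2.83 ± 0.41, adjusted P = 0.000321). Loxl3 went from 4.64 ± 3.47 to 25.9 ± 8.08 CPM (2.48 ± 0.49, adjusted P = 0.00309) and the transglutaminase Tgm2 from 28.5 ± 15.01 to 137 ± 59.8 CPM (2.26 ± 0.37, adjusted P = 0.000776), and in all 3 every Tp-BCC tumor lay above every GEM-BCC tumor. Loxl4 went the other way, from 10.2 to 2.71 CPM (-1.90 ± 0.28, adjusted P = 0.000283), without overlap. Loxl2 gave 0.38 ± 0.32 (adjusted P = 0.415). The same 4 genes passed with the GC trend removed.

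Among small leucine-rich proteoglycans that coat collagen fibrils, 4 of 10 were higher, all called beside 2.36% of all tested genes, and 0 lower, with a list median of 0.15. Kera, keratocan, stood between 0.0598 and 1.304 CPM in GEM-BCC and at 29.6, 7.65, 34.7 and 26.1 CPM in TP1 to TP4 (5.37 ± 0.57, adjusted P = 1.48e-05). Omd (4.53 ± 0.69, adjusted P = 0.000463), Ogn (3.51 ± 0.69, adjusted P = 0.00287) and Aspn (3.48 ± 0.64, adjusted P = 0.0018) lay under 12 CPM in every GEM-BCC tumor. Ogn stood at 22.4, 8.17, 45.6 and 82.1 CPM in TP1 to TP4, Aspn at 10.8, 3.02, 29.0 and 49.2 CPM, and Omd at 7.65, 8.42, 18.7 and 43.0 CPM. Ogn and Aspn in TP2 lay within the GEM-BCC range, whereas Omd and Kera did not overlap between models. The abundant members gave no pass: Bgn -0.10 ± 0.25 (adjusted P = 0.801), Prelp -0.29 ± 0.38 (adjusted P = 0.611) and Dcn, which binds type I fibrils, -0.54 ± 0.41 (adjusted P = 0.371).

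Collagen receptors had 0 of 9 tested genes pass in either direction, with a list median of -0.20 and Itgb1, Ddr1 and Mrc2 at -0.43, 0.28 and -0.06, and with the GC trend removed Itga11 passed as lower. Collagen degradation had 1 of 10 higher, the fibroblast protease Fap (1.83 ± 0.48, adjusted P = 0.0146), and 2 lower. The metalloprotease inhibitor Timp3 fell from 483 ± 185 to 105 ± 30.2 CPM (-2.21 ± 0.35, adjusted P = 0.000617), without overlap, and Ctsk, the collagen-cutting cathepsin K, from 348 to 128 CPM (-1.44 ± 0.35, adjusted P = 0.0109). Mmp14, the membrane collagenase, was at 986 ± 333 and 1068 ± 436 CPM (0.11 ± 0.29, adjusted P = 0.811). Basement membrane partners had 2 of 17 higher, Nid2 (1.17 ± 0.21, adjusted P = 0.00131) and Lama4 (0.77 ± 0.26, adjusted P = 0.0491, lost with DESeq2 size factors), and 0 lower, with Sparc, Lama5 and Lamc1 at -0.71, 0.31 and 0.58 without passing, and with the GC trend removed Agrn passed as lower. Beside the basement membrane and type XVIII chains, 5 of 10 endothelial markers were higher in Tp-BCC and 0 lower, with summed levels between 126 and 314 CPM (GEM-BCC) and between 398 and 523 CPM (Tp-BCC), and their part in those levels was not tested. Pericyte and Schwann cell markers had none of 10 and of 7 pass. Adipocyte markers had 4 of 5 tested genes called as higher, beside 2.36% of all tested genes. Among them was Cidec, which reached the count filter only through Tp-BCC and is no support for a difference. Skeletal muscle markers had 2 of 7, with the adipocyte sum between 8.78 and 22.5 CPM (GEM-BCC) and between 25.8 and 133 CPM (Tp-BCC), and the muscle sum between 3.16 and 10.5 CPM and between 9.48 and 185 CPM, highest in TP4. Of 10 macrophage markers Cd68 alone was higher (1.31 ± 0.39, adjusted P = 0.0292).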

How the data were processed

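Poly(A) RNA of 13 tumors was sequenced with paired reads. According to the submitters' processing notes and the methods, the authors cleaned reads with SOAPnuke, aligned them with Bowtie2 2.3.4.3 to mouse transcripts (GRCm39) and quantified genes with RSEM 1.3.1 in its strand-specific mode, and the deposited values are RSEM expected counts per gene, keyed to gene symbols. Why some genes lack values is not given in the sources used here. Nothing else was normalized before deposit.

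Expected counts were rounded to whole numbers. Genes valued in all 13 tumors that reached 10 counts in 4 or more were fitted with edgeR 4.0.16 in R 4.3.3 (TMM, quasi-likelihood F test, robust dispersions, no covariate), with Benjamini-Hochberg adjustment over all 14390 tested genes. An adjusted P under 0.05 passed, and an absolute log2 fold change above 2 in addition was called. The SE is the size of the log2 fold change over the root of the F statistic. Log2 CPM used a prior count of 2, CPM are TMM-scaled, and levels per kilobase used the longest protein-coding GENCODE vM21 transcript (GRCm38), which also gave GC content. Where no tumor of a model exceeded 3 counts, a bound was computed with 3 counts, which covers counting error only. Named genes are collagens that passed, the 2 best expressed of each class, and per list the 3 best expressed and the called members. Other genes are said to have been named after their values were seen. The members, classes and lists were chosen with earlier results of these data known. RefSeq annotates GRCm38.p6, so its table served only for names, neighbors and start windows. The scripts were tested on simulated data. Alternatives were DESeq2 1.42.0 or its size factors, library size, other filters, non-robust dispersions, summing the tumors of a mouse, tumors left out, a replicate block, and removal of GC or length trends (lowess, span 0.3). P-values set the difference between models against the spread among these tumors. All Tp-BCC tumors belong to a line from a single GEM-BCC tumor, and some GEM-BCC tumors share a mouse. The P-values therefore do not speak for other transplanted lines.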

Additional observations from a re-analysis of the deposited data

Results flagged for a closer look

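For 41 genes, 14 shares and 8 ratios, each in both models (126 sets of tumors), Dixon's criterion at 95% was applied. In 8 sets a tumor stood apart from the rest of its model, with some tumors flagged in more than 1 set. Chance flags about 1 of 20 sets. On the log2 CPM scale, Col5a3 was high in GEM5 (5.27), which is the GEM-BCC tumor that overlapped Tp-BCC, and Col5a2 was high in TP2 (10.10). Col6a6 was low in GEM3 (1.40), the GEM-BCC tumor below all Tp-BCC tumors, and Col20a1 was low in the same tumor (-0.78). Col6a4 was low in GEM2 (-0.32). Col4a4 was low in TP2 (-2.29). As shares of all counts, the FACIT chains were low in TP4 (0.0915%) and the short-chain network chains were high there (0.00673%).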

How the results depend on the processing

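The 15 collagens that passed became 0 in the fit with a replicate block, which used tumors 1 to 4 of each model, where 112 genes of all passed as higher and 67 as lower. The replicate numbers only name tumors and do not pair them: same-numbered tumors of the models deviated together in 0 of 4 pairs. Without GEM1, TP2 and TP4, a setting added once the data had been seen, 6 collagens passed (3 higher, 3 lower, 2 called) and 0 of the 4 ratios did. With each tumor left out in turn, 8 to 19 collagens passed, 5 to 9 as higher and 2 to 11 as lower, and 2 to 4 were called. The fewest passed without TP2, 8 in all (6 higher and 2 lower), and Col12a1, Col24a1, Col26a1, Col5a3, Col9a2 and Col6a5 were among those lost. Without GEM9, and likewise without TP1, 5 passed as lower. Called collagens numbered 15 at a fold threshold of 1, and 2 with a filter of 10 counts in 10 tumors, without TP2 or without GEM7. With the length trend removed 11 passed as higher and 5 as lower, and Col1a1 lost its pass (-0.66, adjusted P = 0.304). With the GC trend removed 18 passed, 6 as higher and 12 as lower. With DESeq2's Wald test 19 passed. With counts summed per mouse 16 passed, without Col1a1 and with Col4a4 and Col19a1 added. The cause of these changes was not tested.

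The collagen share of counts differed by -0.68 percentage points (Tp-BCC minus GEM-BCC) by -0.37 with TMM-scaled CPM, by -1.12 with the GC trend removed, and by 0.346 without Col1a1, Col1a2 and Col3a1. The median SD of log2 CPM was larger in GEM-BCC by 0.10, and by 0.43 with the GC trend removed. The direction turned for chains whose difference did not pass: with the length trend removed, Col4a5 gave 0.044, Col6a1 0.13, Col6a2 0.094, Col7a1 0.059, Col15a1 0.30 and Col16a1 0.053. In the block fit Col2a1 gave 0.81, Col15a1 0.27 and Col25a1 0.27, and Col25a1 gave 0.078 with the GC trend removed. Without GEM1, TP2 and TP4, Col3a1 gave -0.20, Col8a1 0.28, Col9a3 -0.26 and Col5a1/Col5a2 -0.43, which was -0.31 with the GC trend removed. With each tumor left out, Col2a1 ran from -0.83 to 0.065, Col3a1 from -0.0051 to 0.27, Col6a1 from -0.41 to 0.11, Col6a2 from -0.54 to 0.016, Col15a1 from -0.35 to 0.13, and Col5a1/Col5a2 from -0.20 to 0.29. Called collagens at a few counts, as Col6a5, are limited by depth, which was lower in Tp-BCC.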
